A study of Mus musculus with 6 samples.

Results

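Glycosyltransferases and glycan sulfotransferases are enzymes, most of them in the Golgi, that build and decorate the sugar chains of glycoproteins, glycolipids and proteoglycans. Their genes were chosen by symbol, as the rows of the deposited tables whose names begin with B3gal, B3gn, B4gal, Chst, Fut, Galnt, Gcnt, Hs2st, Hs3st, Hs6st, Mgat, Ndst, St3gal, St6gal or St8sia. This gave 112 of 31626 genes, each on a single row and none with a placeholder in place of a value. The family was picked with the comparison of control and Dot1l-deleted libraries already known, because B4galnt3 was among its largest rises. B4galnt3 is therefore described without a test, and nothing is read from how many family members changed. Adjusted p-values of the other members come from 1 limma fit over all tested genes.

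The cells were common myeloid progenitors from C57Bl/6 mice, transformed by a retrovirus that carries the leukaemia oncogene MN1 together with GFP (MSCV-MN1-IRES-GFP) and grown in M3234 methylcellulose with FBS, IL3, IL6 and SCF. All 6 libraries came from cells with loxP-flanked (flox/flox) Dot1l alleles, sorted at day 7. The 3 control libraries were from cells transduced with a control, and the 3 Dot1l-deleted libraries (Dot1l -/-) from cells transduced with Cre, the recombinase that cuts out the flanked part of the gene. No library had Cre with intact Dot1l, so an effect of Cre and an effect of losing Dot1l cannot be told apart. DOT1L places methyl groups on lysine 79 of histone H3. The series concerns how DOT1L and MLL1 act with MN1 in acute myeloid leukaemia. The labels do not state whether replicates were grown or taken from mice separately. The p-values therefore rest on the spread between these libraries alone, which may be technical.

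Sugar chains are made without a template, and the set of transferases a cell expresses helps to decide which chains it carries. On leukocytes, fucosylated and sialylated chains serve as selectin ligands, sialic acids are read by Siglec receptors, and heparan and chondroitin sulfates bind growth factors, chemokines and granule proteins. Many steps can be carried out by more than 1 isozyme, and the isozymes differ in which protein or lipid they prefer.

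Levels are in FPKM, the fragments of a gene divided by its length in kilobases and scaled by the size of the library. FPKM is per length, so levels of different genes can be set side by side. The deposited tables give no read counts and the absolute depth is unknown, but genes near 0 step by single fragments, which put the depths of the other libraries at 0.737 to 0.895 of the first control library. Dot1l was at 20.2, 22.6 and 19.6 FPKM in the controls and 8.24, 8.17 and 5.801 in the libraries labelled as deleted. The third Dot1l-deleted library stood apart. Its median log2 deviation over the tested genes was -0.37, against 0.05 to 0.10 in the other 5, and its 10 highest rows held 39.0% of all FPKM, against 6.59% to 10.8%. Over all 11924 tested genes the median log2 fold change was -0.16, and 0.0011 with median-of-ratios scaling. Results that depend on this library are given with scaling or without it, and "scaling" means median-of-ratios scaling wherever no other is named. Of 7 tested progenitor markers 3 fell (Cd34, Kit and Gata2), 1 rose (Mpo, a mean of 572 FPKM in the controls and 2319 FPKM after deletion) and 3 did not pass (Myb, Cebpa and the pan-leukocyte gene Ptprc), with sums of 2013 to 2145 FPKM in the controls and 2364 to 3387 FPKM after deletion. Cd34 was at 738 to 765 FPKM in the controls and 100 to 143 FPKM after deletion. All 9 tested neutrophil markers rose, with summed levels of 1072 to 1314 FPKM in the controls and 21288 to 25482 FPKM after deletion. Of 5 tested monocyte markers 4 rose and 1 fell, with sums of 134 to 152 FPKM in the controls and 825 to 1088 FPKM after deletion. The neutrophil markers Fcnb and Ltf and the monocyte markers Fcgr1 and Csf1r had control means below 1 FPKM, the filter for testing. They were tested only because of their deleted libraries. B cell markers summed to at most 0.145 FPKM and T and NK cell markers to at most 0.0598 FPKM in any library. In bulk RNA, a change in the share of a cell type and a change in RNA per cell cannot be told apart, and the part of these marker changes in the results on glycan genes was not tested.

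Promoter sequences are shown for 5 members: B4galnt3 and its paralogue B4galnt4, which went in opposite directions, Hs3st5 and B3gnt8, which rose, and B4galt4, which fell. They come from RefSeq on GRCm38.p6, another build than the mm9 of the deposited tables, and run from 250 bases before to 50 bases after the annotated start, 5′ to 3′ on the gene's strand. Each of these genes has 1 window in the table. Capitals mark the GC box GGGCGG on either strand, the core of the site that SP factors are known to bind.
B4galnt3, chr6:120294848-120295147, minus strand: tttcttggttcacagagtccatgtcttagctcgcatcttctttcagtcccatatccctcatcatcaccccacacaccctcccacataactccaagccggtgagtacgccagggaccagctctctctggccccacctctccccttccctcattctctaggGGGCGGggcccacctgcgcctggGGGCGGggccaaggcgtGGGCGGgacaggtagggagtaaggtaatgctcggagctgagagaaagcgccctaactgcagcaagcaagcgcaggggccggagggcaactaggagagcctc
B4galnt4, chr7:141060728-141061027, plus strand: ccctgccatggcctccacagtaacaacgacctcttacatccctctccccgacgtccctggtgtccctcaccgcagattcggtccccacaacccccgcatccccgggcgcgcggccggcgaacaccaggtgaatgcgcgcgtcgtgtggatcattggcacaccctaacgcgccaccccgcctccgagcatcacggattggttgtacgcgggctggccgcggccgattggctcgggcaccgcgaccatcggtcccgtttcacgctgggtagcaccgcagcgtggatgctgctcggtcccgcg
Hs3st5, chr10:36506557-36506856, plus strand: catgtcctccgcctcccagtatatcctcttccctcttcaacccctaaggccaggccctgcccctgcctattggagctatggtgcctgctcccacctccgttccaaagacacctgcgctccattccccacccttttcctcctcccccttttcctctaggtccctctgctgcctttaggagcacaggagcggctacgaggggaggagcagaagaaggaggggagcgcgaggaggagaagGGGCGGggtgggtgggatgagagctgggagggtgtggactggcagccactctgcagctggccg
B3gnt8, chr7:25627374-25627673, plus strand: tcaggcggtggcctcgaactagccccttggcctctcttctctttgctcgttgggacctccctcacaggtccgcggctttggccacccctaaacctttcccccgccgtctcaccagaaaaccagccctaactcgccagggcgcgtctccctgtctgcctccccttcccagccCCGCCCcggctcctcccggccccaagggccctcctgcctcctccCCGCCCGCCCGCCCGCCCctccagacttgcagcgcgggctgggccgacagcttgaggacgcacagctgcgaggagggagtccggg
B4galt4, chr16:38742009-38742308, plus strand: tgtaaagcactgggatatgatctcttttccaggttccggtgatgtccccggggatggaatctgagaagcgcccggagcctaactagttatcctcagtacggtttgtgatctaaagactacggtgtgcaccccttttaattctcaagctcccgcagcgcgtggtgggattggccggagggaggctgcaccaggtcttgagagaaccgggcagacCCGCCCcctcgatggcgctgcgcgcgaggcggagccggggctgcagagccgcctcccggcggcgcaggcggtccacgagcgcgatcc
The GC box was found 3 times in the B4galnt3 window, 5 times, overlapping matches included, in that of B3gnt8, once each in those of Hs3st5 and B4galt4, and not in that of B4galnt4. B4galnt4 had the most CpG dinucleotides of the 5, with 37, and Hs3st5 the fewest, with 9. Windows were listed for 86 members, 113 windows in all, and 57.5% of them held the GC box, against 35.7% of all 32851 windows, which include those of non-coding genes. Other motifs were searched on both strands: TATAAA, the C/EBP-like TTGCNNAA, the PU.1-like GAGGAAG and the HOX-PBX-like TGATTNAT. None of these 4 was in the 5 windows shown. Over all windows they were found in 13.6%, 10.8%, 13.6% and 3.22%, and over the windows of members in 2.65%, 7.08%, 17.7% and 3.54%. These are matches of letters in a window and say nothing of binding.

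Of the 112 members, 65 had a mean of at least 1 FPKM over the 6 libraries and entered the fit. B4galnt3 is set aside from the counts in this paragraph, which leaves 64. Of these, 8 rose, 16 fell and 40 did not pass at an adjusted p under 0.05. Over all tested genes 7.43% rose and 12.2% fell, and the counts of each role given below stand beside these same shares. In 14 of the 64 every deleted library was above every control and in 28 every one was below, where 10.7% and 34.1% of all tested genes did so. The median log2 fold change of the 64 was -0.15, beside -0.16 for all tested genes. After median-of-ratios scaling, 24 of the 64 rose and 23 fell, where 23.0% of all tested genes rose and 22.3% fell, and without the third Dot1l-deleted library 21 rose and 22 fell, where the shares were 17.1% and 21.1%. Of the 24 called with the values as deposited, 23 kept their call and direction with scaling, and B4galnt2 lost it. All 24 kept it without the third Dot1l-deleted library. Summed over the family, members came to 1176 to 1218 FPKM in the controls and to 1208, 1186 and 872 FPKM after deletion, the last in the library that stood apart. The order within the family changed at the top. Fut8 was the highest member in every control library and was in place 6 or 7 after deletion, where B4galnt1 was the highest in every library.

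**Figure D1:**
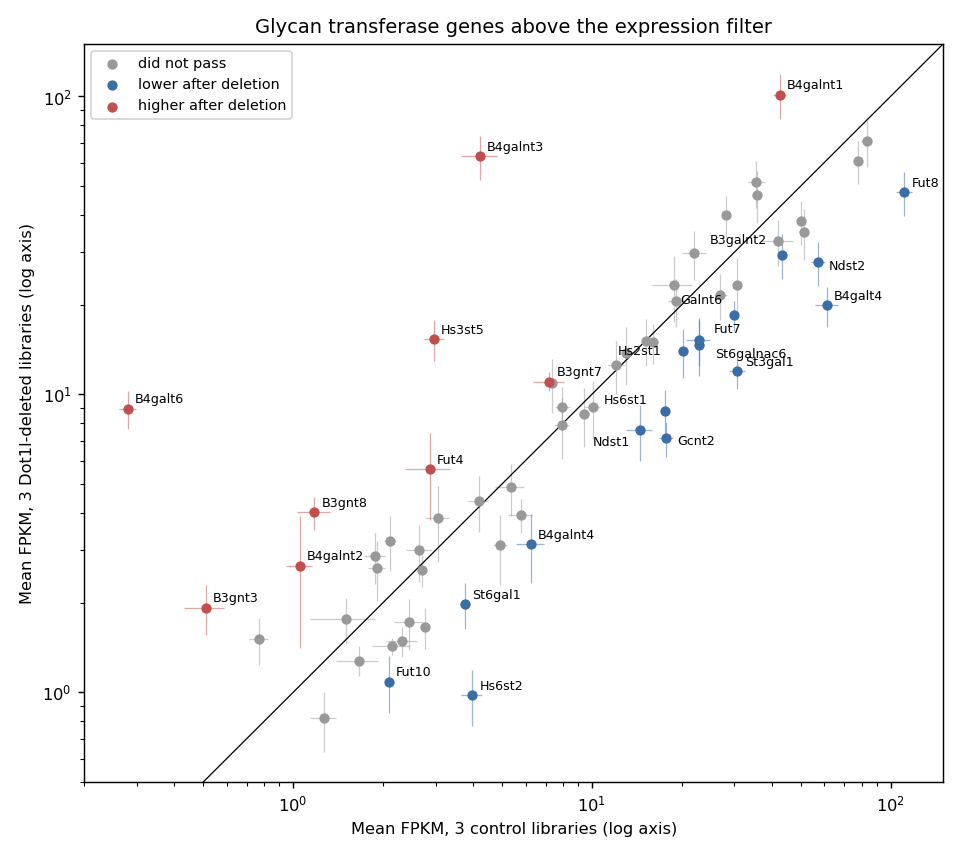
Mean FPKM of the 65 tested members in the 3 control libraries (horizontal, log axis) and the 3 Dot1l-deleted libraries (vertical, log axis), with bars of 1 SD. Points above the diagonal are higher after deletion. B4galnt3 lies farthest above it among the genes that exceed 10 FPKM in either group, while B4galt6 starts lowest, at 0.280 FPKM.

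The beta1,4-N-acetylgalactosaminyltransferases moved in both directions. B4galnt3 and B4galnt4 encode the enzymes that make LacdiNAc, the N-acetylgalactosamine-capped chain end found on some N- and O-glycans. B4galnt3 (ENSMUSG00000041372) was at 3.68, 4.84 and 4.14 FPKM in the controls and 70.2, 67.9 and 50.7 FPKM after deletion. The groups were far apart, and the lowest deleted library was the one that stands apart. The mean went from 4.22 ± 0.581 to 62.9 ± 10.7 FPKM (SD, n = 3 each), 14.9-fold, and the log2 fold change was 3.61 (SE 0.166), given as a description because this rise led to the choice of the family. Within each library, B4galnt3 went from place 41 to 44 among the 112 members in controls to place 3 or 4 after deletion, an order that library scaling does not touch. B4galnt4 (ENSMUSG00000055629) was at 6.70, 6.58 and 5.48 FPKM in the controls and 3.35, 3.85 and 2.24 FPKM after deletion. It fell 1.99-fold without overlap of the groups (log2 fold change -0.82, SE 0.177, limma adjusted p = 0.00802). As a share of the summed level of both genes, B4galnt3 held 40.3% ± 4.19 in controls and 95.3% ± 0.585 in the deleted libraries (SD, n = 3 each).

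B4galnt1 encodes the GM2/GD2 synthase, which adds N-acetylgalactosamine to gangliosides. It was at 45.0, 42.2 and 40.5 FPKM in the controls and 110.3, 112.7 and 81.3 FPKM after deletion, all 3 deleted libraries being higher. The log2 fold change was 1.22 (SE 0.174, limma adjusted p = 0.000624). B4galnt2, which makes the Sda blood group structure, was at 1.17, 1.03 and 0.960 FPKM in the controls and 2.09, 1.79 and 4.09 FPKM after deletion. Its rise rested in part on the third Dot1l-deleted library, the highest here although most genes were low in it. The log2 fold change was 0.78 (limma adjusted p = 0.0408), 0.52 without that library (adjusted p = 0.0242) and 0.75 without the third control (adjusted p = 0.0571). Median-of-ratios scaling gave 0.91 (adjusted p = 0.0662).

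Among the beta1,4-galactosyltransferases, B4galt6 rose and B4galt4 fell. B4galt5 and B4galt6 encode the lactosylceramide synthases, which add galactose early in the making of most glycolipids. B4galt6 (ENSMUSG00000056124) was at 0.295, 0.285 and 0.259 FPKM in the controls and 9.81, 9.59 and 7.45 FPKM after deletion. It was low in every control and far higher in every deleted library, with a 32.0-fold ratio of means (log2 fold change 2.95, SE 0.164, limma adjusted p = 1.05e-06). Its controls lay below the filter of 1 FPKM, so B4galt6 was tested only because of its deleted libraries. B4galt5 was at 8.49, 7.76 and 7.68 FPKM in the controls and 9.82, 10.1 and 7.32 FPKM after deletion, and the groups overlapped (limma adjusted p = 0.494, and 0.0021 after scaling, where the log2 fold change was 0.32). The share of B4galt6 in the sum of both went from 3.39% ± 0.142 to 49.7% ± 0.906 (SD, n = 3 each), so the 2 genes were at nearly the same level after deletion.

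B4galt4 encodes a galactosyltransferase known for its part in keratan sulfate and sulfated glycans. It was at 63.0, 55.0 and 65.7 FPKM in controls, the highest of its group, and 22.3, 21.04 and 16.4 FPKM after deletion. It fell 3.08-fold (log2 fold change -1.58, SE 0.165, limma adjusted p = 6.98e-05), the largest fall in the family on the log2(FPKM + 1) scale. B4galt1, the main galactosyltransferase of N-glycans, was at 28.1, 28.2 and 28.1 FPKM in the controls and 44.2, 42.9 and 32.5 FPKM after deletion. It missed the threshold with the values as deposited (log2 fold change 0.48, limma adjusted p = 0.0640) and passed with scaling, where the log2 fold change was 0.66. B4galt4 held 68.4% ± 2.04 of the sum of these genes in controls and 33.3% ± 0.351 in the deleted libraries (SD, n = 3 each), so their order turned round.

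**Figure D2:**
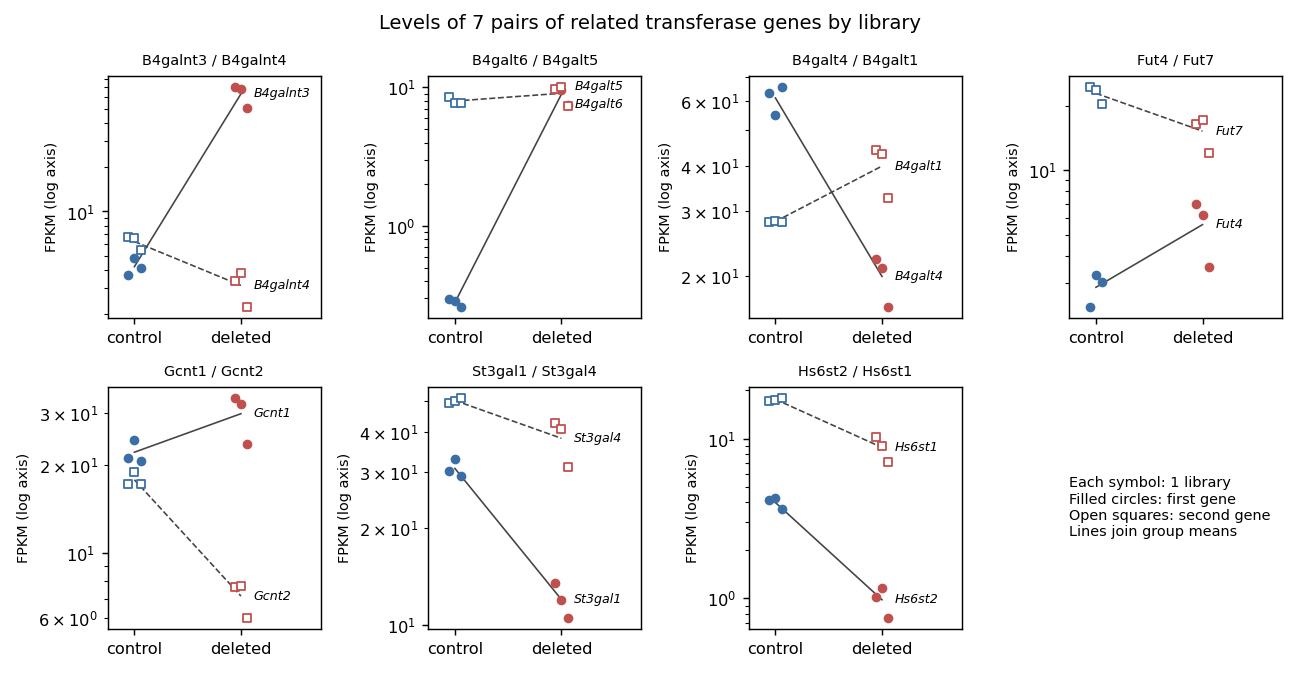
FPKM (log axis) in each control and Dot1l-deleted library for 7 pairs of related transferase genes, with lines between the group means. In the first 3 panels the genes of a pair diverge, cross or meet: B4galnt3 leaves B4galnt4, B4galt6 reaches the level of B4galt5, and B4galt4 falls below B4galt1.

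The beta1,3-N-acetylglucosaminyltransferases extend chains with N-acetylglucosamine, the step that alternates with galactose addition to build poly-N-acetyllactosamine. Of 9 tested, 3 rose, none fell and 6 did not pass, where 7.43% of all tested genes rose and 12.2% fell. Median-of-ratios scaling gave 6 that rose and none that fell, where 23.0% of all tested genes rose and 22.3% fell. The 9 include B3gnt1, now named B4gat1, which is in this group by its old symbol alone (limma adjusted p = 0.549). At an unadjusted p under 0.05, 0 of the 9 were lower. B3gnt4 (means of 2.15 and 1.43 FPKM, limma adjusted p = 0.162) and B3gnt9 (means of 1.27 and 0.819 FPKM, limma adjusted p = 0.279) were nevertheless lower in every deleted library than in any control. B3gnt4 was called lower with sample weights and B3gnt9 with quantile normalization. B3gnt8, which acts on branched N-glycans, was at 1.30, 1.22 and 1.02 FPKM in the controls and 4.18, 4.44 and 3.46 FPKM after deletion. It rose 3.42-fold with a gap between the groups (log2 fold change 1.20, SE 0.164, limma adjusted p = 0.000462). B3gnt3, which extends core 1 O-glycans, was at 0.577, 0.424 and 0.532 FPKM in the controls and 2.20, 2.05 and 1.51 FPKM after deletion (log2 fold change 0.95, SE 0.194, limma adjusted p = 0.00619). B3gnt3 was below 1 FPKM in the controls and was tested only because of its deleted libraries. The rise of B3gnt7, a keratan sulfate enzyme, was smaller, from 7.21 ± 0.847 to 11.0 ± 0.804 FPKM (SD, n = 3 each; limma adjusted p = 0.0162). Its call was lost on leaving out the first or the third control (adjusted p = 0.0704 and 0.136) or the second Dot1l-deleted library (adjusted p = 0.0516). B3gnt2, the main poly-N-acetyllactosamine synthase and the highest of the group, was at 36.9, 34.2 and 35.8 FPKM in the controls and 50.2, 54.0 and 36.3 FPKM after deletion. It overlapped between groups as far as the third deleted library goes (limma adjusted p = 0.183, and 0.000244 with scaling). B3gnt6, the core 3 synthase, lay below the filter, at no more than 0.0829 FPKM.

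Of 4 tested beta1,3-galactosyl- and N-acetylgalactosaminyltransferases, B3galnt2 fell and 3 did not pass. B3galnt2, an enzyme of the O-mannose glycan of dystroglycan, was at 42.5, 44.6 and 43.2 FPKM in the controls and 32.4, 32.3 and 23.6 FPKM after deletion (log2 fold change -0.56, SE 0.165, limma adjusted p = 0.0378). Its call was lost without each control library in turn (adjusted p of 0.118 to 0.152). B3galtl, now named B3glct, which extends O-fucose on thrombospondin repeats, was at 2.44 ± 0.271 FPKM in the controls and 1.72 ± 0.332 FPKM in the deleted libraries (SD, n = 3 each; limma adjusted p = 0.204).

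The fucosyltransferases Fut8, Fut7 and Fut10 fell and Fut4 rose. Fut11 was lower in every deleted library than in any control, with means of 5.77 and 3.94 FPKM. It did not pass as deposited (limma adjusted p = 0.0505) and was called lower with scaling (adjusted p = 0.0213). Fut8 encodes the only known enzyme of core fucose, the fucose at the base of N-glycans. Its levels were 119, 105 and 110.3 FPKM in controls, the highest of all members, and 52.1, 52.7 and 38.5 FPKM after deletion. Fut8 fell 2.33-fold (log2 fold change -1.22, SE 0.175, limma adjusted p = 0.000639). Fut4 and Fut7 complete the Lewis x structures of myeloid cells: FUT7 acts in making sialyl Lewis x, the selectin ligand, and FUT4 makes Lewis x, the CD15 antigen. Fut7 was at 24.5, 23.6 and 20.4 FPKM in the controls and 16.5, 17.2 and 12.0 FPKM after deletion (log2 fold change -0.56, SE 0.166, limma adjusted p = 0.0372). Fut4 was at 2.31, 3.26 and 3.02 FPKM in the controls and 7.02, 6.23 and 3.56 FPKM after deletion (log2 fold change 0.74, SE 0.217, limma adjusted p = 0.0372). The third deleted library was only just above the controls for Fut4. The Fut7 call was lost without each control library in turn (adjusted p of 0.0535 to 0.143), and the Fut4 call without control replicate 1 and without Dot1l-deleted replicate 1 or 2 (adjusted p of 0.0822 to 0.0975). The share of Fut4 in the sum of Fut4 and Fut7, which no library scaling changes, was 8.64%, 12.1% and 12.9% in controls and 29.8%, 26.6% and 22.8% after deletion. Fut7 remained the higher of them in all 6 libraries. Fut10 was at 2.09 ± 0.0631 FPKM in the controls and 1.09 ± 0.237 FPKM in the deleted libraries (SD, n = 3 each; limma adjusted p = 0.0469). Leaving out any 1 library other than the third Dot1l-deleted one removed its call.

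No N-glycan branching gene passed. Of the 5 Mgat genes tested with limma, 1 had an unadjusted p under 0.05, and with scaling Mgat1 was called higher and Mgat4b lower. Mgat2, needed for every complex N-glycan and the highest of the group, was at 86.7, 83.2 and 79.5 FPKM in the controls and 80.2, 75.6 and 56.3 FPKM after deletion, with overlap (limma adjusted p = 0.361). Mgat4b was lower in every deleted library, at 51.5, 52.5 and 49.6 FPKM in the controls and 38.2, 39.7 and 27.2 FPKM after deletion, with limma adjusted p = 0.0504 as deposited and 0.000514 with scaling. Mgat5, whose branch is the preferred place for poly-N-acetyllactosamine, was at 38.1, 48.0 and 40.0 FPKM in the controls and 39.1, 31.2 and 27.8 FPKM after deletion (limma adjusted p = 0.184).

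Mucin-type O-glycans are started by the Galnt enzymes and branched by the Gcnt enzymes. Of 8 Galnt genes tested, Galnt6 fell and 7 did not pass. Galnt6 was at 29.6, 30.6 and 29.7 FPKM in the controls and 19.3, 20.1 and 16.1 FPKM after deletion (log2 fold change -0.67, SE 0.143, limma adjusted p = 0.00749). Galnt1, the highest of them, was at 77.9 ± 2.68 FPKM in the controls and 60.9 ± 9.90 FPKM after deletion (limma adjusted p = 0.171), and Galnt3 at 7.36 ± 0.311 and 10.9 ± 2.22 FPKM (SD, n = 3 each; limma adjusted p = 0.0563). With scaling these genes passed in opposite directions, Galnt1 lower (adjusted p = 0.0195) and Galnt3 higher (adjusted p = 0.000142). Gcnt2, the branching enzyme of the I blood group antigen, was at 17.2, 18.9 and 17.2 FPKM in the controls and 7.66, 7.73 and 6.01 FPKM after deletion. It fell 2.49-fold (log2 fold change -1.21, SE 0.140, limma adjusted p = 0.000146). Gcnt1 makes core 2 O-glycans, the scaffold of selectin ligands on PSGL-1. Gcnt1 was at 21.1, 24.3 and 20.6 FPKM in the controls and 33.8, 32.1 and 23.5 FPKM after deletion, with an overlap through the third deleted library (limma adjusted p = 0.128, and 0.000847 with scaling). Gcnt1 held 55.3% ± 0.898 of the sum of Gcnt1 and Gcnt2 in controls and 80.6% ± 0.946 in the deleted libraries (SD, n = 3 each).

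The 3 sialyltransferases that passed with the values as deposited all fell, while with scaling St3gal2 and St6galnac4 also passed as higher and St3gal4, St3gal5 and St6galnac3 as lower. They cap chains with sialic acid, and are grouped by the bond they form. In the alpha2,3 group 1 of 5 fell. St3gal1, which caps core 1 O-glycans and so competes with core 2 branching, was at 30.1, 32.9 and 29.2 FPKM in the controls and 13.5, 11.9 and 10.5 FPKM after deletion. The groups lay far apart (2.57-fold lower, log2 fold change -1.30, SE 0.144, limma adjusted p = 0.00011). St3gal4, an enzyme of selectin ligands and the highest of the group, was at 49.1, 50.1 and 51.2 FPKM in the controls and 42.7, 40.9 and 30.9 FPKM after deletion (limma adjusted p = 0.126, and 0.00531 with scaling). St3gal5, the GM3 synthase that opens the ganglioside series, was at 4.92 ± 0.267 FPKM in the controls and 3.11 ± 0.813 FPKM in the deleted libraries (SD, n = 3 each; limma adjusted p = 0.0515, and 0.00822 with scaling).

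In the alpha2,6 group 2 of 4 fell, where 12.2% of all tested genes fell. St6gal1, which caps N-glycans with the sialic acid that CD22 reads, was at 3.85, 3.59 and 3.83 FPKM in the controls and 1.76, 2.38 and 1.804 FPKM after deletion (log2 fold change -0.68, SE 0.157, limma adjusted p = 0.0114). It lost the call without control replicate 1 or 3 (adjusted p = 0.0563 and 0.0512). St6galnac6, which can act on gangliosides, was at 22.9 ± 0.866 FPKM in the controls and 14.7 ± 3.15 FPKM in the deleted libraries (SD, n = 3 each; limma adjusted p = 0.0256). Its call was lost without each control library in turn (adjusted p of 0.0545 to 0.0786). St6galnac3 was at 2.77 ± 0.0732 FPKM in the controls and 1.66 ± 0.260 FPKM in the deleted libraries (SD, n = 3 each), without overlap (limma adjusted p = 0.0526, and 0.00987 with scaling). St6galnac4 was at 21.9, 18.1 and 16.3 FPKM in the controls and 28.7, 24.2 and 17.1 FPKM after deletion, with overlap (limma adjusted p = 0.359, and higher with adjusted p = 0.0201 after scaling). Neither of the 2 tested alpha2,8 genes passed with limma as deposited or with median-of-ratios scaling, and 1 was lower at an unadjusted p under 0.05. St8sia1 was called lower with quantile normalization and with sample weights. St8sia4, a polysialic acid synthase, was at 26.9 ± 1.36 FPKM in the controls and 21.6 ± 3.81 FPKM after deletion (limma adjusted p = 0.202), and St8sia1, the GD3 synthase, at 2.32 ± 0.279 and 1.48 ± 0.169 FPKM (SD, n = 3 each; limma adjusted p = 0.115).

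Heparan sulfate is a long chain that sulfotransferases modify in turn, beginning with the Ndst enzymes, which prepare and sulfate the glucosamine nitrogen. Of 8 tested genes, 5 fell, 1 rose and 2 did not pass, where 12.2% of all tested genes fell and 7.43% rose. The 5 include Hs6st2, which entered the fit through its controls alone. Ndst2, the highest of the group and the isozyme known for making heparin in mast cells, was at 55.9, 60.6 and 55.1 FPKM in the controls and 30.7, 30.2 and 22.3 FPKM after deletion (log2 fold change -1.03, SE 0.167, limma adjusted p = 0.00143). Ndst1 was at 13.6, 16.1 and 13.6 FPKM in the controls and 9.06, 7.89 and 5.85 FPKM after deletion (log2 fold change -0.86, SE 0.166, limma adjusted p = 0.0043). Both were lower in every deleted library than in any control. Mast cell markers summed to 2075 to 2315 FPKM in the controls and 1353 to 1987 FPKM after deletion, 1 of 3 tested fell, and their part in the fall of Ndst2 was not tested.

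The 6-O-sulfotransferases followed the same direction. Hs6st2 was at 4.10, 4.22 and 3.61 FPKM in the controls and 1.02, 1.16 and 0.755 FPKM after deletion. It was 4.06-fold lower (log2 fold change -1.33, SE 0.167, limma adjusted p = 0.000258). Its mean after deletion, 0.980 FPKM, lay below the filter of 1 FPKM, so Hs6st2 was tested only because of its controls. Hs6st1 was at 17.2, 17.5 and 18.05 FPKM in the controls and 10.2, 8.99 and 7.16 FPKM after deletion (log2 fold change -0.94, SE 0.149, limma adjusted p = 0.00128). Hs2st1, the single 2-O-sulfotransferase, was at 20.2 ± 0.636 FPKM in the controls and 14.0 ± 2.59 FPKM in the deleted libraries (SD, n = 3 each; limma adjusted p = 0.0432), and this call was lost without any 1 of the control libraries and without Dot1l-deleted replicate 1. Hs3st5, whose product adds the rare 3-O-sulfate, was the one gene of this group that rose, and with scaling Hs3st3b1 passed as well. It was at 3.04, 3.14 and 2.71 FPKM in the controls and 16.8, 16.7 and 12.6 FPKM after deletion, 5.17-fold higher (log2 fold change 2.03, SE 0.149, limma adjusted p = 6.29e-06).

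Of the other carbohydrate sulfotransferases, the Chst genes, 3 of 12 were above the filter and none passed with limma. At an unadjusted p under 0.05, 1 was higher, and with scaling Chst12 was called higher. Chst12 and Chst11 sulfate chondroitin, the chain carried by the granule proteoglycan serglycin. Chst12 was at 35.7, 37.9 and 33.2 FPKM in the controls and 56.0, 57.8 and 41.0 FPKM after deletion, without overlap (limma adjusted p = 0.0648, and 0.000137 with scaling). Chst11 was at 16.1 ± 0.571 FPKM in the controls and 15.0 ± 2.32 FPKM in the deleted libraries (SD, n = 3 each; limma adjusted p = 0.647), and its small log2 fold change of -0.11 turned to 0.07 with scaling.

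**Figure D3:**
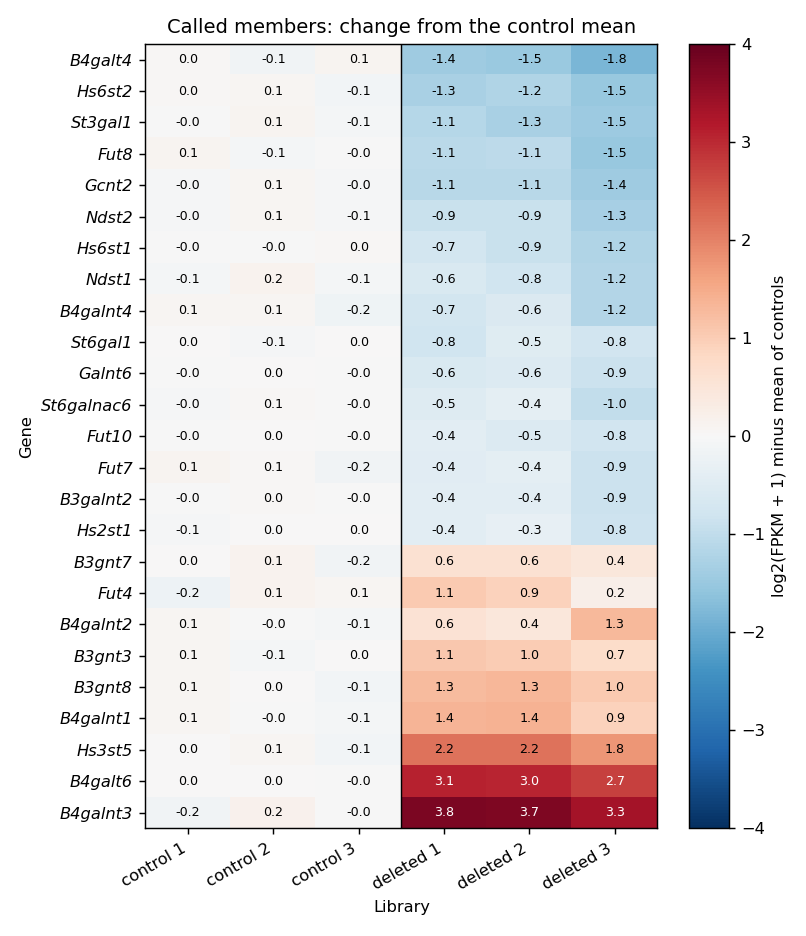
Difference of log2(FPKM + 1) from the mean of the controls, in colour and in figures, for the 24 called members and B4galnt3 (rows, ordered by fold change) in each library (columns). The control columns stay near 0, while the deleted columns run from -1.8 for B4galt4 to 3.8 for B4galnt3, with the third deleted library lower than the other deleted libraries for most genes.

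The 47 members below the filter all had values of at most 0.949 FPKM, and 13 of them were listed at 0 throughout. In 5 of the 34 with a value above 0 every deleted library was above every control and in 7 every deleted library was below, where 14.3% and 8.03% of all such genes below the filter did so. St8sia6 was at 0.508, 0.887 and 0.845 FPKM in the controls and 0.185, 0.162 and 0.148 FPKM after deletion. B3galt5, an enzyme of type 1 chains, was at 0.596, 0.490 and 0.453 FPKM in the controls and 0.252, 0.260 and 0.243 FPKM after deletion. Chst1, a keratan sulfate sulfotransferase, was at 0.0330, 0.0193 and 0.0209 FPKM in the controls and 0.184, 0.125 and 0.151 FPKM after deletion. Fut9 and Galntl1, now named Galnt16, were at no more than 0.0207 FPKM in the controls and listed at 0 in all deleted libraries. Values near 0 rest on a few fragments, and without read counts the number behind the higher of these values is unknown.

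Genes that supply or complement the family were taken from a list of 109 donor-synthesis enzymes, Golgi transporters, other transferases, glycan-removing enzymes, and glycan carriers and lectins, of which 106 were matched and 86 tested. Of these 13 rose and 11 fell, where 7.43% of all tested genes rose and 12.2% fell, and their median log2 fold change was -0.10. With scaling 35 rose and 21 fell, beside 23.0% and 22.3% of all tested genes. Without the third Dot1l-deleted library 29 rose and 19 fell, beside 17.1% and 21.1%. In the group of carriers and lectins 7 of 14 rose and 1 fell, against the same shares of 7.43% and 12.2% over all tested genes. The 7 include Siglece, at means of 0.251 FPKM in the controls and 2.52 FPKM after deletion. It was tested only because of its deleted libraries. Mgl2, a lectin that binds terminal N-acetylgalactosamine, was at 1.03, 0.921 and 1.11 FPKM in the controls and 22.5, 19.5 and 15.3 FPKM after deletion, 18.8-fold higher (log2 fold change 3.30, SE 0.160, limma adjusted p = 4.77e-07). Cd33, a Siglec receptor gene, rose 2.93-fold, and Lgals9, the galectin 9 gene and the one that fell, was at 493 FPKM in the controls and 190 FPKM after deletion. Of 15 tested glycan-removing enzymes 3 rose and none fell with limma, 1 was lower at an unadjusted p under 0.05, and 7 rose and 2 fell with scaling. Among those that rose were the lysosomal sulfatase gene Arsb, which rose 2.85-fold, and the sialidase gene Neu1, which rose 2.09-fold.

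Among the other glycan-building transferases 6 of 28 fell and 1 rose, where 12.2% of all tested genes fell and 7.43% rose. The 3 called falls of smallest adjusted p were those of Csgalnact1, Ext1 and Chsy1. Csgalnact1, which starts chondroitin sulfate, was at 14.5, 16.7 and 14.7 FPKM in the controls and 3.24, 3.45 and 2.58 FPKM after deletion (4.96-fold lower, limma adjusted p = 5e-06). Ext1, a polymerase of heparan sulfate, fell 3.39-fold (limma adjusted p = 3.29e-05) and Chsy1, a chondroitin synthase, 2.43-fold (limma adjusted p = 0.000169). Csgalnact2, of the same kind as Csgalnact1, was at means of 39.7 and 49.3 FPKM with overlap (limma adjusted p = 0.295, and higher with adjusted p = 0.000915 after scaling). Has3, a hyaluronan synthase gene below the filter, was at 1.40, 1.51 and 1.72 FPKM in the controls and 0.170, 0.122 and 0.110 FPKM after deletion. Ext2, the partner gene of Ext1, was at 37.5 and 37.4 FPKM (limma adjusted p = 0.936, and higher with adjusted p = 0.0280 after scaling). Serglycin, Srgn, the highest gene among the carriers and lectins, was at 1271 FPKM in the controls and 1432 FPKM after deletion (limma adjusted p = 0.629). After scaling it was higher, with a log2 fold change of 0.33 (limma adjusted p = 0.00937). Selplg, the PSGL-1 gene, was at 124 and 105 FPKM (limma adjusted p = 0.373, and 0.490 with scaling). In donor supply 1 of 18 synthesis genes rose and 2 fell, and 1 of 11 transporter genes rose and 2 fell. The highest of these, Nans, which makes sialic acid phosphate, was at 136 and 126 FPKM (limma adjusted p = 0.642). Neu1, Ext2, Lgals9, Selplg, Csgalnact2, Siglece and Has3 were named after their values were seen.

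**Figure D4:**
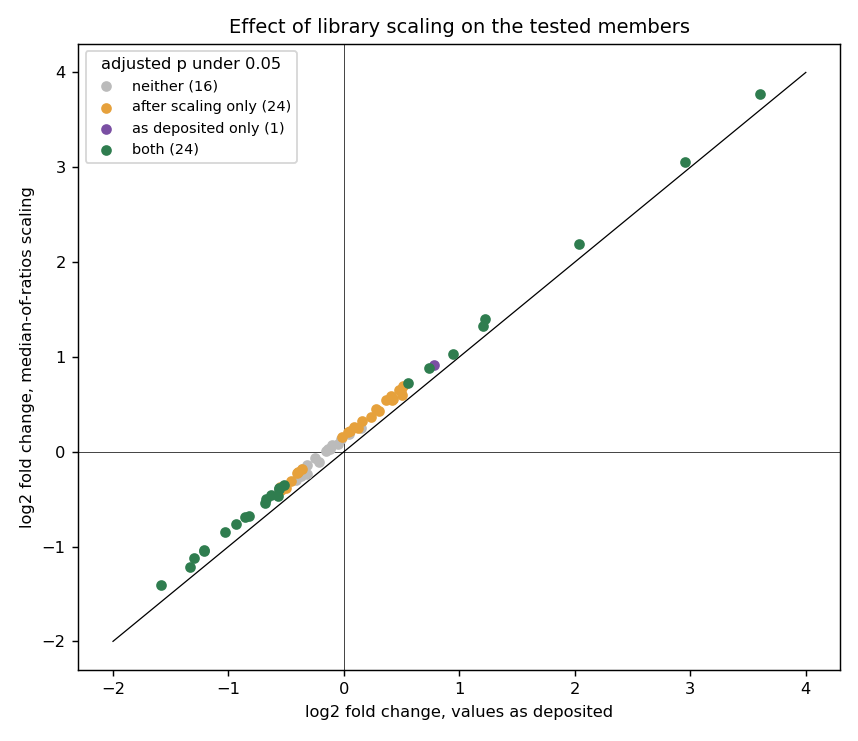
Log2 fold change of the 65 tested members with the values as deposited (horizontal) and after median-of-ratios scaling (vertical). Colour shows which of them gave an adjusted p under 0.05. B4galnt3, which is described without a test, is drawn in the colour of those that passed both ways. All points lie above the diagonal, and 24 members, B4galnt3 among them, are drawn as passing both ways, 24 only after scaling, 1 only as deposited and 16 neither way.

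Per the labels' protocols the libraries were made with a stranded mRNA kit, but the labels and notes at hand do not state whether counting used strand. Of the 24 called members and B4galnt3, 11 share exon bases with a gene on the other strand in GENCODE M21. The partners listed in the tables were Bckdha, over 1171 bases of B3gnt8, with a mean of 42.5 FPKM in the controls and 44.0 FPKM after deletion, Slc26a10, beside B4galnt1, with 0.613 and 1.40 FPKM, Tbce, beside B3galnt2, with 25.4 and 22.6 FPKM, and BC106179, beside St6gal1, with 0.0424 and 0.0352 FPKM. Reads of these partners cannot be told apart from those of the members unless strand was used, so the level of B3gnt8, at 1.18 ± 0.148 FPKM in controls (SD, n = 3), is uncertain.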

How the data were processed

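The authors deposited 1 table of FPKM values per library, with 31626 Ensembl genes each. Cuffdiff, SAMtools, GSNAP, CASAVA 1.8.2 and mouse build mm9 are listed per the submitters' processing notes, without role or order. Per the labels' protocols, libraries were made with a stranded mRNA kit. A value of 999999999 was read as a failed estimate, and the 378 genes with it in any library were left out. The 11924 genes with a mean of at least 1 FPKM entered a linear model of log2(FPKM + 1) in limma 3.58.1 (R 4.3.3; eBayes, trend on), Dot1l-deleted minus control, two-sided, with Benjamini-Hochberg adjustment over all of them and calls at 0.05. The mean was taken over both groups. Among the members B4galt6, B3gnt3 and Hs3st3b1 therefore entered through the deleted libraries alone, as did Siglece of the other glycan genes. Hs6st2 and B3gnt9 entered through the controls alone. Fold changes on this scale understate the change of low genes, and a plain fold is the ratio of group means. With 3 against 3 libraries an exact permutation test cannot go below 0.1, so none is given.

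The members, lists, pairs, printed promoters and tests were chosen with earlier results of these data known. Named members were B4galnt3, the 10 largest called changes in each direction without overlap, the highest and the 2 of smallest adjusted p in each of 13 roles, and 1 low member a role where groups did not overlap. For the other glycan genes they were the 3 of smallest adjusted p in each direction and the highest of each role. Other names were chosen after their values were seen. Median-of-ratios scaling used genes above 0 in all libraries with a mean of at least 1 FPKM. Alternatives were pseudocounts of 0.1 and 5, no filter, median-of-ratios and quantile scaling, the variance trend, sample weights, a block for replicate number, rows summed by symbol and each library left out. Scaling without the third Dot1l-deleted library and scaling with the block were added after seeing the data.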

Additional observations from a re-analysis of the deposited data

How the results depend on the processing

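The number of members that passed moved with library scaling and with the third Dot1l-deleted library. As deposited, 9 rose and 16 fell. The number that rose was 25 with median-of-ratios scaling, 23 with quantile normalization and 27 with sample weights. With quantile normalization 27 fell, and with sample weights 26. B4galnt3 is counted in every number of members that rose in this section, although it is described without a test. Without it, 8 rose as deposited, 24 with median-of-ratios scaling and 21 without the third Dot1l-deleted library. Scaling together with the replicate block gave 24 that rose, and scaling without the third Dot1l-deleted library 25. With no filter on low values 9 rose and 14 fell. B4galnt2, St6galnac6, Fut7, B3galnt2, Hs2st1 and Fut4 then lost their calls. Chst1 and Hs3st3b1 were gained as higher, and St8sia6 and B3galt5 as lower. Leaving out 1 library gave 7 to 22 that rose, the most without the third Dot1l-deleted library, and 10 to 22 that fell, the fewest without the first or the third control. For the other glycan genes, 13 rose and 11 fell as deposited, 35 and 21 with median-of-ratios scaling, 30 and 21 with quantile normalization, 32 and 20 with sample weights, and 31 and 19 with scaling but without the third Dot1l-deleted library. Leaving out 1 library gave 9 to 29 that rose and 5 to 19 that fell, the most of both without the third Dot1l-deleted library, with 5, 5 and 6 that fell without control replicates 1, 2 and 3. Calls over all tested genes moved as well. Their share that rose went from 7.43% to 23.0% after median-of-ratios scaling, and their share that fell from 12.2% to 22.3%. Leaving out the third Dot1l-deleted library gave 17.1% and 21.1%. No share over all genes was taken for quantile normalization, sample weights or the other settings. The counts under those settings are therefore not read as particular to these genes. The B4galnt3 log2 fold change was 3.86 with a pseudocount of 0.1 and 2.87 with one of 5, which follows from the scale. Chst11 turned from -0.11 to 0.067 with median-of-ratios scaling and 0.068 with quantile normalization, and ran from -0.20 to 0.014 with 1 library left out, the last without the third Dot1l-deleted library. It did not pass in any of these. The causes of the other shifts were not tested.

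Deviations from the group means had correlations across genes of -0.0377 to 0.0128 between same-numbered libraries of the groups. Between libraries of different numbers they were -0.0780 to 0.110. With 3 libraries a group these values cannot show whether the numbers pair the libraries, and the labels do not state it. With the replicate block 10 members rose and 17 fell, and 14 and 12 of the other glycan genes. No called member turned direction under any alternative. The tables give no read counts, so depth limits low members to a description.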
